A study of Rattus norvegicus with 13 samples.

Results

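The genes described here are the nuclear receptors for thyroid hormone, their heterodimer partners, 2 of their cofactors and 3 genes known to respond to triiodothyronine (T3), measured in the thyroid of young male rats whose mothers had received potassium iodide (KI) while pregnant. The 9 genes are Thra, Thrb, Rxra, Rxrb, Ncor1, Ncoa1, Klf9, Hr and Thrsp, and every probe that carries one of these gene names in the array files was kept. This gave 20 of the 45598 probes and 9 of the 36174 gene names on the array. The 6 rats of the KI-treated group were born to Wistar dams given 1 mg/kg of KI per day by gavage for 8 days from gestational day 9, and the 7 rats of the control group to Wistar dams given saline over the same days. The last dosing day is given as gestational day 16 in the methods of the study and as 17 in its introduction. The thyroids were taken 30 days after weaning, at postnatal day 51, so the offspring were exposed only in utero. Each one-colour array was taken to hold RNA of 1 rat, and since the litters are not given in the sources used here, p-values measure the spread between rats that may share a mother. The comparison asks whether KI given to the mother leaves a lasting difference in the offspring's thyroid.

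T3 enters the nucleus and binds the thyroid hormone receptors, which sit on DNA mostly as heterodimers with a retinoid X receptor. Without hormone the receptor holds corepressors such as NCOR1, which bring in histone deacetylase activity. Binding of hormone releases the corepressor and recruits coactivators such as NCOA1, and target genes such as Klf9, Hr and Thrsp are then transcribed. The thyroid is the gland that makes thyroid hormone.

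Some genes were read by probes in different places, so the probe sequences decide which transcripts a value stands for. Each probe is named here by its gene and by the base of its transcript at which it starts. The array files list the Thra probe at 1466 for both RefSeq transcripts of Thra and the probe at 2191 for only 1 of them. These transcripts are called TRalpha1 and TRalpha2 here from general knowledge of the RefSeq records, since the files do not name them, and by that assignment the probe at 2191 reads TRalpha2, a form that does not bind T3. The Thrb probe at 1577 lies in a part of the message that resembles the Thra probe at 1466. With the pair slid along each other for the best match without gaps, 25 of 38 aligned bases were equal (65.8%), and those bases are in capitals. For Thra at 2191 and Hr at 618 only the first 30 bases are shown, and for Hr at 5490 the last 30, with capitals for the 24 bases it shares with the probe Hr at 5527.
Thra at 1466: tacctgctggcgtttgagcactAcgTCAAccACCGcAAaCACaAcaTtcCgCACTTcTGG
Thrb at 1577: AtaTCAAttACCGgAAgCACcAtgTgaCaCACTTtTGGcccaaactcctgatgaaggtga
Thra at 2191: ccagtgcccagtgccgggcctggcatagag
Hr at 618: gcatcctgcaaatcccggagtccgacccct
Hr at 5490: ctcaacGCACACATGCGCCAGCTCTTGTTA

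In the rn4 coordinates that the array files give, the Thra probes lay on the plus strand at chr10:87537328-87537387 and chr10:87542245-87542304. The 3 Thrb probes lay on the minus strand at chr15:9282955-9283014, chr15:9279981-9280040 and chr15:9279230-9279289. The Hr probes lay on the plus strand at chr15:50956048-50956107, chr15:50972717-50972777 and chr15:50972754-50972813, so that the first is far upstream of the others. Rxra was read at chr3:6689165-6689224 (plus), Ncoa1 at chr6:27224419-27224478 (minus), Klf9 at chr1:226445625-226445684 (plus) and Thrsp at chr1:154651216-154651275 (minus). The Rxrb probes, at chr20:4954336-4954384 and chr20:4954595-4954654 on the minus strand, share 42 bases of sequence and are not independent readings, although the positions listed for them do not overlap, so their coordinates are uncertain. The 6 Ncor1 probes were spread along chromosome 10 on the minus strand, and those at 947 and 6775 each covered a span longer than the probe, 8383 and 4485 bases, as a probe across introns does. The GC content of the 20 probes ranged from 35% to 70%, with Hr at 618 the richest.

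All 9 genes were detected in every thyroid, but not by every probe. The 18 probes that were tested stood well above background on 13 of 13 arrays, whereas Thrb at 1577 and Ncor1 at 1458 did so on 0 of 13 and were not tested. The level of Thrb is therefore known only from its probes at 4551 and 5302, far downstream of the probe that resembles Thra. Values below are log2 levels, that is log2 of the background-subtracted signal minus the array's 75th percentile, and levels of different probes are not comparable with each other.

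The arrays differed in signal and in the weight that limma gave them. Control 4 and control 6 had the lowest 75th percentiles of signal, 10.5 and 10.3 on the log2 scale against 10.6 to 11.3 on the others, and limma gave them array weights of 0.205 and 0.292 against 0.636 to 2.06. They had 37590 and 34840 gene spots well above background, against 36042 to 41050 on the others. They were scanned in the same session as KI 2 and KI 3. Relative to the other controls their levels ran along GC content, from medians of 0.18 and 0.09 in the fifth of probes with the least GC to -0.31 and -0.35 in the fifth with the most. Whether these rats or their arrays stood apart was not tested. The group differences of the members are also given without control 4 and control 6. Thyroid markers were present, with 10 of 11 on every array and Slc26a4 at background, and thyroglobulin (Tg) between 7.64 and 8.21, Foxe1 between 3.52 and 4.39 and the iodide transporter Slc5a5 between 2.68 and 4.75. The samples also held RNA of fat (8 of 10 adipocyte markers on every array), brown fat (4 of 6), skeletal muscle (8 of 10), parathyroid (2 of 3) and C cells (5 of 5). Fewer cells of a type and less RNA per cell cannot be told apart in such samples.

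No receptor, cofactor or responsive gene passed the adjusted threshold when rats of KI-treated and saline-treated dams were compared. In limma's fit over 25703 probes, 0 of the 18 member probes had an adjusted p under 0.05, with adjusted p between 0.440 and 0.986. At an unadjusted p under 0.05, 1 of 18 was called, beside 11.3% of all tested probes, a difference too small in number to read anything from. Over all tested probes, 0 (0.0%) passed after adjustment. Without control 4 and control 6, 0 of 18 member probes were called at an unadjusted p under 0.05, beside 9.19% of all tested probes. The group mean was higher after KI for 12 member probes and lower for 6, and several of these probes read the same gene. Over all tested probes the median log2 fold change was 0.00. The median size of the log2 fold change was 0.12 over the member probes and 0.17 over all tested probes. The groups overlapped for every one of the 18, and the share of all tested probes with such overlap is not given here. In simulated arrays of this size the same fit recovered 0% of log2 changes of 0.5, 63% of changes of 1 and 94% of changes of 2. Each probe was simulated independently, without shifts shared between probes, and changes under 0.5 were not simulated. The lack of calls therefore does not exclude changes of the size seen in most members.

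**Figure D1:**
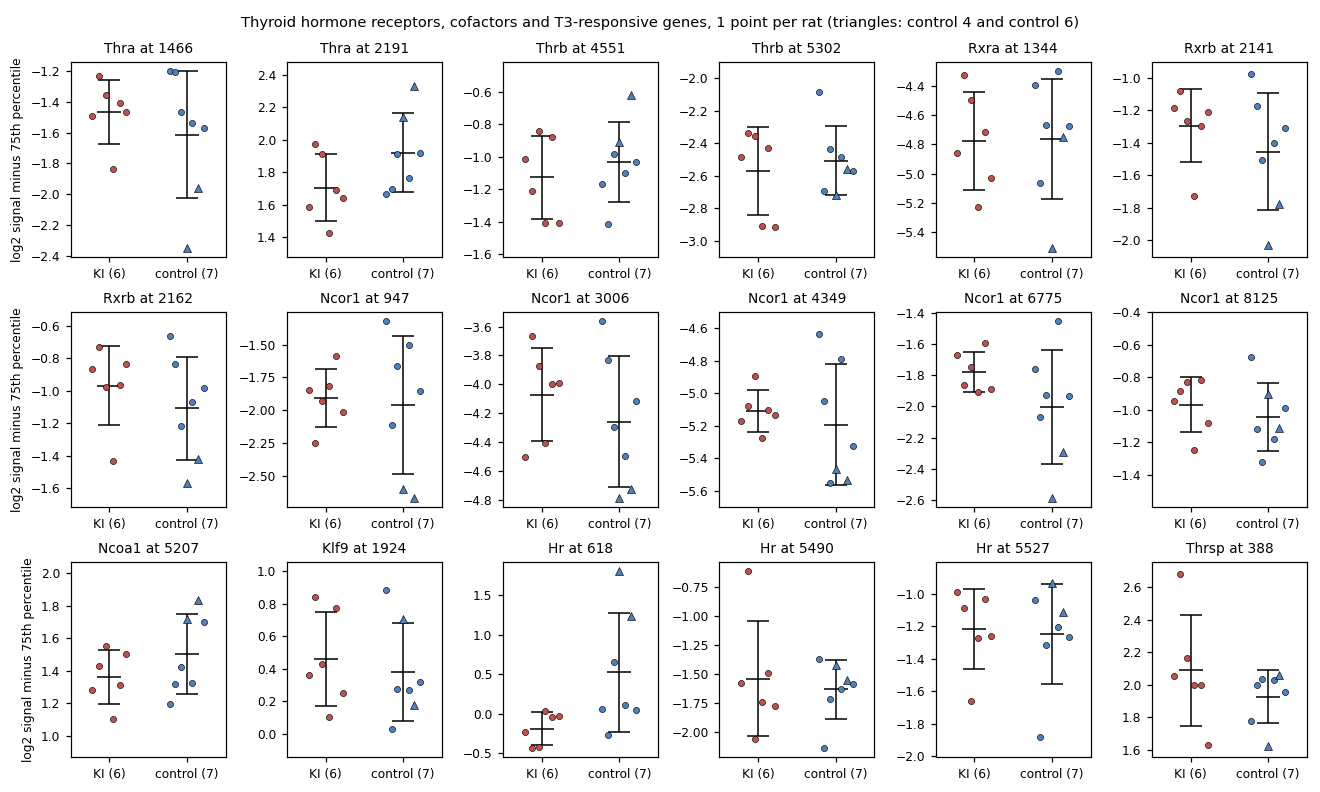
Log2 level (log2 signal minus the array's 75th percentile) of the 18 tested probes, 1 panel per probe, with 1 point per rat, the group mean as a horizontal line and the SD as bars. The 6 KI-treated and 7 control rats overlap in every panel. Control 4 and control 6 (triangles) lie together at an edge of the control group for Thra, Thrb at 4551, Rxrb, Ncoa1 and Hr at 618. The same holds for Ncor1 at 947, 3006 and 6775.

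Thra encodes the receptor TRalpha. At the probe shared by both transcripts, levels in the KI-treated rats ran from -1.84 to -1.24 with a median of -1.44, and in the controls from -2.35 to -1.20 with a median of -1.54. The lowest levels of all were those of control 4 (-2.35) and control 6 (-1.96), and the other controls overlapped the KI-treated rats. The groups differed by a log2 fold change of 0.15 ± 0.18 (SE, limma adjusted p = 0.728; exact permutation p = 0.471, two-sided), and it was -0.07 without control 4 and control 6.

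The TRalpha2 probe ran the other way in those same rats. It lay between 1.43 and 1.98 (median 1.66) in the KI-treated group and between 1.67 and 2.33 (median 1.91) in the control group, and 5 of 6 KI-treated rats were below the control median. Control 6 (2.33) and control 4 (2.14) were the highest of the 13 rats. The log2 fold change was -0.21 ± 0.13 (limma adjusted p = 0.502, exact permutation p = 0.119), and -0.09 without these 2 arrays. With scan session as a block it was -0.23 ± 0.09 with an unadjusted limma p of 0.023, which did not pass adjustment (adjusted p = 0.230).

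Set against each other within an array, the pair of Thra probes separated control 4 and control 6 from the rest. The TRalpha2 value exceeded the shared one by 4.49 in control 4 and by 4.29 in control 6. In the other 11 rats this difference stayed between 2.87 (control 1) and 3.49 (control 7), and the KI-treated rats, from 3.08 to 3.26, lay inside that range. The part of the GC-linked shift of control 4 and control 6 in the Thra values was not tested. Both probes had a similar GC content (53.3% and 51.7%). Their correlation over the 13 arrays, after group means were subtracted, was r = -0.38 (rho = -0.20, permutation p = 0.249 and 0.537, adjusted p = 0.332 and 0.623 over 16 pairs), and r = 0.42 without those arrays. It was -0.60 when the 2 arrays farthest from the median of the shared probe were left out instead.

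Thrb encodes TRbeta, the receptor known for most of the hormone's feedback on the pituitary and its action in liver. At the probe at 4551 the KI-treated rats lay between -1.41 and -0.84 (median -1.11) and the controls between -1.41 and -0.62 (median -1.03). The ranges were nearly the same, and control 6 was the highest. This probe gave a log2 fold change of -0.09 ± 0.14 (limma adjusted p = 0.781). At the probe at 5302, KI 4 and KI 6 were the lowest of all rats (both -2.91) and control 1 the highest (-2.09), with medians of -2.46 and -2.56 in the KI-treated and control groups. This difference was -0.06 ± 0.14 (limma adjusted p = 0.851). The differences without control 4 and control 6 were 0.01 at 4551 and -0.12 at 5302. The correlation of the 2 Thrb probes was r = 0.37 (rho = 0.32, permutation p = 0.225 and 0.301, adjusted p = 0.332 and 0.461) and r = 0.65 without control 4 and control 6.

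Rxra and Rxrb encode retinoid X receptors, which pair with the thyroid hormone receptors and with many other nuclear receptors. Rxra levels ran from -5.23 to -4.33 (median -4.79) in the KI-treated group and from -5.51 to -4.30 (median -4.67) in the control group. The groups covered the same range, with control 4 the lowest rat, and the log2 fold change was -0.01 ± 0.20 (limma adjusted p = 0.986; 95% interval -0.44 to 0.42). Without control 4 and control 6 it was -0.16. Its sign depended on single arrays and on the block used, and no value under any alternative was larger than 0.19 in size.

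The Rxrb probe at 2162 gave -1.43 to -0.73 (median -0.92) in the KI-treated rats and -1.57 to -0.66 (median -1.07) in the controls. KI 4 (-1.43), control 4 (-1.57) and control 6 (-1.42) formed the low end, and the remaining rats of both groups lay together above them. Its log2 fold change was 0.14 ± 0.16 (limma adjusted p = 0.703), and 0.16 ± 0.17 (adjusted p = 0.682) at the overlapping probe at 2141. Without control 4 and control 6 both were close to 0, at -0.01 and -0.02. The overlapping probes agreed closely from rat to rat (r = 0.99, rho = 0.97, permutation p = 1e-05, the smallest that 100000 permutations can give, adjusted p = 0.00016; r = 0.99 without the 2 farthest arrays).

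Ncor1 encodes the corepressor that unliganded receptors recruit, and its 5 tested probes spread from the front to the end of the message. All 5 had a higher mean in the KI-treated group, with log2 fold changes from 0.05 at the probe at 947 to 0.23 at the probe at 6775 and limma adjusted p from 0.538 to 0.930. At 6775, levels ran from -1.91 to -1.59 (median -1.80) in the KI-treated rats and from -2.59 to -1.45 (median -1.94) in the controls. All 6 KI-treated rats were above the control median there, but control 5 and control 1 were within or above their range. The difference at 6775 was 0.23 ± 0.16 (exact permutation p = 0.188) and 0.05 without control 4 and control 6. Without those 2 arrays the means at 947, 3006 and 4349 were lower in the KI-treated group, by 0.22, 0.01 and 0.04 on the log2 scale.

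The Ncor1 probes differed in how they followed each other. Control 4 and control 6 averaged 0.94 lower than the other controls at 947, 0.70 lower at 3006 and 0.62 lower at 6775, yet 0.05 higher at 8125. The probes at 947 and 6775 followed each other between rats (r = 0.86, rho = 0.86, permutation p = 0.0014 and 0.00075, adjusted p = 0.011 and 0.006; r = 0.77 without the 2 farthest arrays), and r was 0.70 without control 4 and control 6 (adjusted p = 0.148). Neither followed the brightest probe, at 8125, beyond the permutation test's threshold (r = 0.08 and 0.02, rho = 0.04 and 0.19, p = 0.824 and 0.951, adjusted p = 0.879 and 0.951). These r depended on the arrays and the batch, at 0.22 and 0.58 without the 2 farthest arrays, 0.27 and 0.26 without control 4 and control 6, and 0.69 and 0.42 with session means subtracted. The GC content was 35% at 947, 45% at 3006, 43.3% at 6775 and 35% at 8125. The part of the GC-linked shift of control 4 and control 6 in the Ncor1 values was not tested.

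Ncoa1 encodes a coactivator with histone acetyltransferase activity that liganded receptors recruit. Its levels were 1.10 to 1.55 (median 1.37) in the KI-treated rats and 1.19 to 1.84 (median 1.42) in the controls. Control 6 (1.84), control 4 (1.72) and control 7 (1.70) lay above every KI-treated rat, and the other 4 controls lay among them. Ncoa1 had a log2 fold change of -0.14 ± 0.13 (limma adjusted p = 0.639), and -0.03 without control 4 and control 6.

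Hr, also called hairless, encodes a corepressor that is itself a direct target of T3 in brain and skin, and its probe at 618 showed the widest difference of all members. The KI-treated rats lay between -0.44 and 0.03 with a median of -0.14. The controls lay between -0.27 and 1.81 with a median of 0.11, with control 4 at 1.81, control 6 at 1.24 and control 3 at 0.65. All 6 KI-treated rats were below the control median, although control 2 (-0.27) was lower than 4 of them and the groups overlapped.

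The log2 fold change of Hr at 618 was -0.71 ± 0.29 (95% interval -1.35 to -0.08), with an unadjusted limma p of 0.030, an adjusted p of 0.440 and an exact two-sided permutation p of 0.035 over the 1716 splits of the arrays. Control 4 and control 6 averaged 1.40 above the other controls at this probe. Without them the difference was -0.31 (limma adjusted p = 0.593). The unadjusted call was also lost when KI 2, KI 3 or control 6 alone was left out, with log2 fold changes of -0.66, -0.67 and -0.59. With slide as a block the value was -0.76 (limma adjusted p = 0.377). Within the 3 scan sessions the difference was -1.96 in the session of control 4 and control 6, 0.00 in the session with KI 1, KI 5, KI 6, control 1 and control 2, and -0.24 in the session with KI 4 and 3 controls. The probe has 70% GC. In the fifth of probes with the most GC, control 4 and control 6 had medians of -0.31 and -0.35 relative to the other controls. The part of the GC-linked shift of these arrays in the Hr values at 618 was not tested.

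The other 2 Hr probes had nearly equal group means. The array files list the same RefSeq transcript for every Hr probe. They give further transcript entries for this downstream pair that are not given for the probe at 618. At 5490 the KI-treated rats ran from -2.06 to -0.61 (median -1.66) and the controls from -2.14 to -1.37 (median -1.59), with KI 2 alone at the top. At 5527 they ran from -1.66 to -0.99 (median -1.18) and from -1.88 to -0.93 (median -1.21), and control 2 was alone at the bottom. The log2 fold changes were 0.09 ± 0.20 and 0.03 ± 0.15 (limma adjusted p = 0.862 and 0.939), and 0.14 and 0.12 without control 4 and control 6.

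The downstream Hr probes, which overlap by 24 bases, followed each other (r = 0.70, rho = 0.77, permutation p = 0.0046 and 0.0024, adjusted p = 0.024 and 0.013; r = 0.89 without the 2 farthest arrays). The correlation of Hr at 618 was r = 0.16 with the probe at 5490 and 0.54 with that at 5527 (rho = 0.09 and 0.32, permutation p = 0.501 and 0.091, adjusted p = 0.573 and 0.242). Within an array, Hr at 618 exceeded Hr at 5527 by 2.74 in control 4 and 2.35 in control 6, and by 0.65 (KI 2) to 1.97 (control 3) in the other rats.

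**Figure D2:**
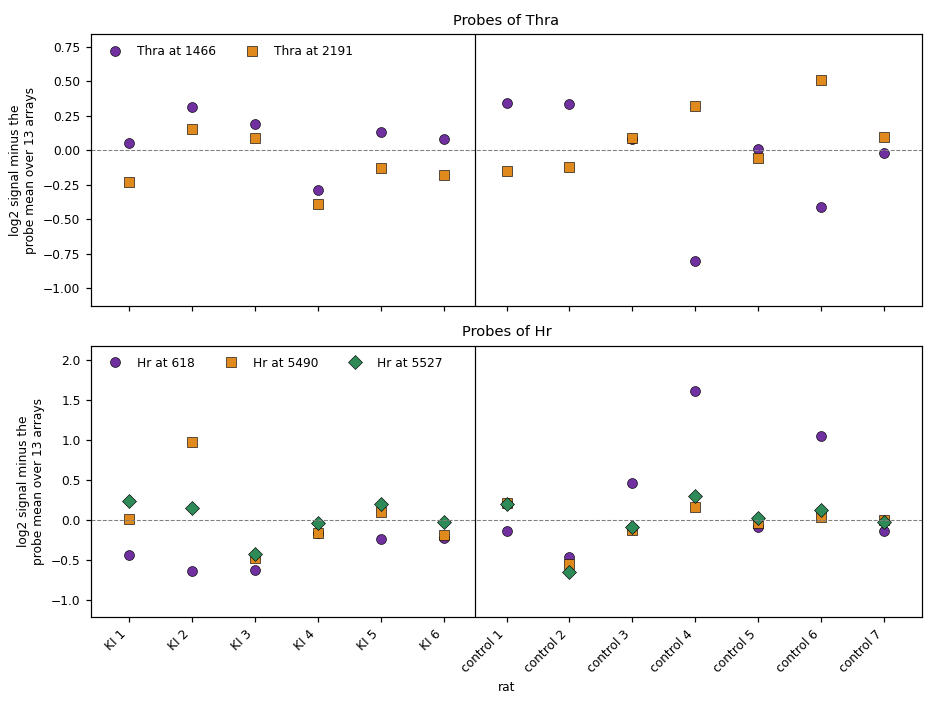
Log2 level of each probe of Thra (top) and Hr (bottom) in each of the 13 rats, minus that probe's mean over the 13 arrays. In control 4 and control 6 the shared Thra probe (1466) is low while the TRalpha2 probe (2191) is high, and Hr at 618 is 1.40 above the other controls on average, against 0.20 for the probe at 5490 and 0.32 for that at 5527.

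Klf9 encodes a zinc finger transcription factor that T3 induces directly in many tissues. Its levels ran from 0.10 (KI 4) to 0.84 (KI 2) with a median of 0.40 in the KI-treated group, and from 0.03 (control 2) to 0.88 (control 1) with a median of 0.27 in the control group. High and low rats were found in both groups. Klf9 had a log2 fold change of 0.08 ± 0.16 (limma adjusted p = 0.844; exact permutation p = 0.622; 95% interval -0.27 to 0.43). Control 4 and control 6 averaged only 0.09 above the other controls, and the difference without them was 0.10.

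Thrsp, or Spot 14, encodes a protein of fatty acid synthesis that T3 induces in liver and fat. The KI-treated rats ran from 1.63 (KI 6) to 2.68 (KI 2) with a median of 2.03, and the controls from 1.63 (control 4) to 2.06 (control 6) with a median of 2.00. KI 2 stood above the other 12 rats, and without it the fold change was 0.04 (limma adjusted p = 0.895). With all rats it was 0.16 ± 0.15 (limma adjusted p = 0.640), and without control 4 and control 6 it was 0.13. Fat is known for high Thrsp levels, and the summed adipocyte markers lay between 3.50 and 4.65 in the KI-treated rats and between 4.11 and 4.83 in the controls. The part of fat in the Thrsp level was not tested.

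Within scan sessions the members went different ways. In the session that held KI 2, KI 3, control 4 and control 6, 13 of 18 probes had a higher mean in the KI-treated rats, and the median difference was 0.41, beside 0.12 over all tested probes, of which 42.4% were lower. In the session with 3 KI-treated and 2 control rats, 8 were higher and 10 lower, beside 54.1% lower among all tested probes. In the session with KI 4 and 3 controls all 18 were lower, with a median of -0.21, where 57.7% of all tested probes were lower. That last value rests on 1 treated rat.

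**Figure D3:**
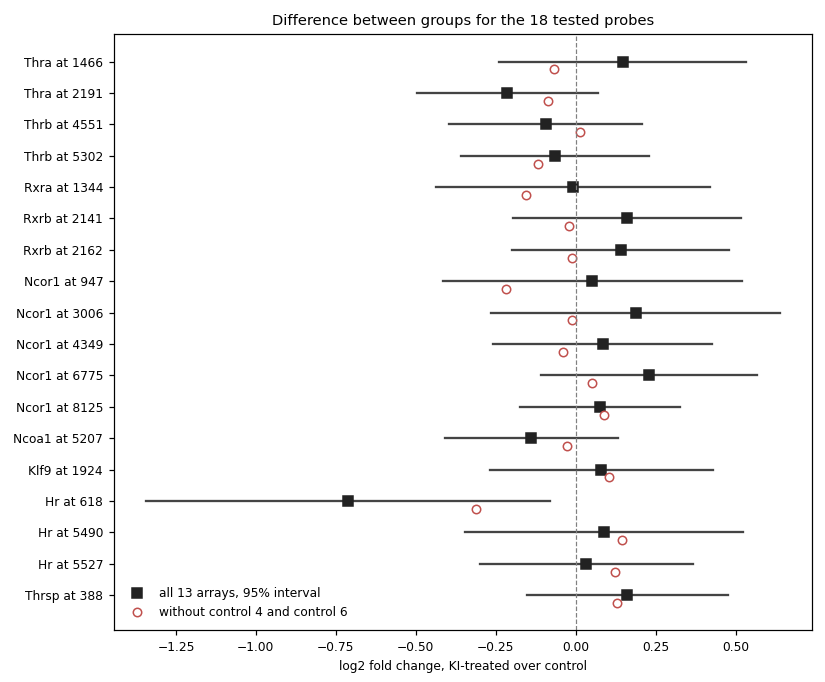
Log2 fold change of the KI-treated over the control group for each tested probe (squares, with limma's 95% interval) and the same value without control 4 and control 6 (open circles). The interval of Hr at 618 alone lies wholly below 0, from -1.35 to -0.08, and its value moves to -0.31 without these arrays.

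Between rats of the same group, some members varied together. Taking the brightest probe of each gene and subtracting group means, 27 of the 36 pairs had a positive r, 7 pairs had an unadjusted permutation p under 0.05, and 3 passed after adjustment over the 36. No share over pairs of other genes is given beside these counts, so they are not read as particular to the members. Thra, at its TRalpha2 probe, went with Ncoa1 (r = 0.87, rho = 0.90, permutation p = 0.00044 and 0.00019, adjusted p = 0.014 and 0.0068). Ncor1, at its probe at 8125, went with Klf9 (r = 0.81, rho = 0.86, permutation p = 0.0017 and 0.00089, adjusted p = 0.021 and 0.016). The other Ncor1 probes were not set against Klf9. Those at 947 and 6775 had r = 0.08 and 0.02 with the probe at 8125. Rxrb and Hr, at 618, went opposite ways (r = -0.81, rho = -0.77, permutation p = 0.00078 and 0.0038, adjusted p = 0.014 and 0.046).

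Leaving out the 2 arrays farthest from the median of the first gene gave r = 0.87 for Thra with Ncoa1, 0.66 for Ncor1 with Klf9 and -0.77 for Rxrb with Hr. With session means subtracted, r was 0.77, 0.79 and -0.87, and 4 pairs passed, with Rxra and Rxrb added (r = 0.81, permutation adjusted p = 0.022), whose r was 0.60 without that step (rho = 0.37, permutation p = 0.045 and 0.242, adjusted p = 0.230 and 0.583) and 0.11 without the 2 farthest arrays. Without control 4 and control 6 the values were 0.75, 0.80 and -0.61, with adjusted permutation p of 0.140, 0.140 and 0.305, so that 0 of the 36 pairs passed. Thra, at its TRalpha2 probe, and Thrb, at 4551, had r = 0.71 (rho = 0.66, permutation p = 0.011 and 0.021, adjusted p = 0.097 and 0.189). Their r was 0.74 without the 2 farthest arrays and 0.52 without control 4 and control 6. By the assignment above TRalpha2 does not bind T3, and the shared Thra probe was not set against other genes. Klf9 and Thrsp, both induced by T3 in other tissues, had r = 0.09 (rho = -0.07, permutation p = 0.795 and 0.827, adjusted p = 0.896 and 0.851; r = -0.26 without the 2 farthest arrays).

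**Figure D4:**
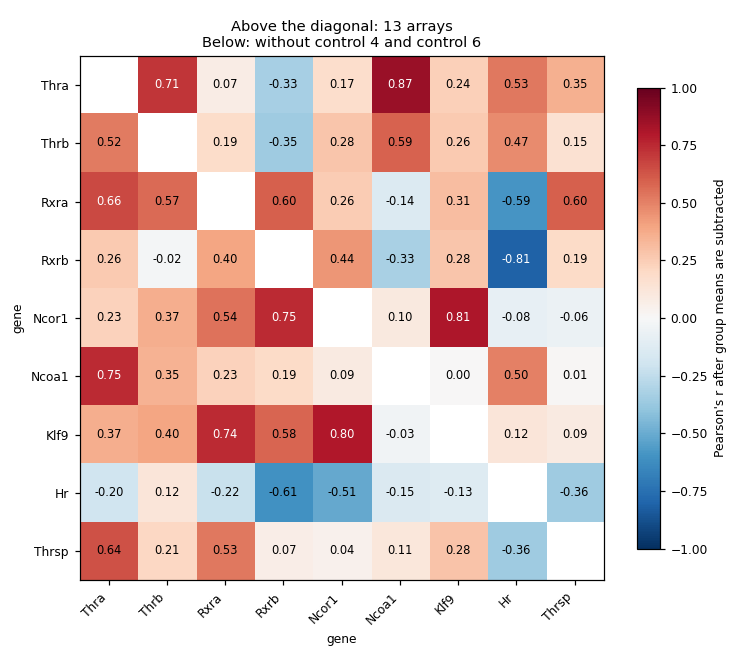
Pearson's r between the 9 genes over the rats after group means were subtracted, above the diagonal with 13 arrays and below it without control 4 and control 6. Each gene is read by its brightest probe, with Thra at 2191 (TRalpha2), Thrb at 4551, Rxrb at 2162, Ncor1 at 8125 and Hr at 618. Thra with Ncoa1 (0.87 and 0.75) and Ncor1 with Klf9 (0.81 and 0.80) keep much of their r, whereas Rxrb with Hr moves from -0.81 to -0.61.

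The genes most like each member over the 13 arrays, among 20665 genes, were found by the same r, and are named as a description only. The closest to Thra was Kbtbd2 (r = 0.96), and the closest to Ncoa1 were an unnamed locus (0.96) and Gpbp1 (0.95). Atm (0.93) was among the 3 closest to Thrb. Klf9 was closest to Usp28 (0.96), Daam2 (0.95) and Spsb1 (0.95), and Hr to a pair of unnamed loci (0.98) and Pde4d (0.96). Rxra was closest to an entry with no gene symbol (0.92), Myh11 (0.91) and Ankfy1 (0.90), and Rxrb to another such entry (0.98) and Prrc2a (0.97). All 3 closest entries of Ncor1 were without a symbol (0.94 to 0.95). Thrsp had the weakest likeness, with Suclg2 at 0.87.

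The wider pathway was read with 4 lists of other genes, each by its brightest probe. Of 18 further coregulators and partners 17 were tested, of 16 other receptors related to or paired with RXR 14, of 32 other T3-responsive genes 28, and of 8 genes of T3 activation, transport or binding 5. After adjustment 0 genes of the 4 lists passed (limma), and the lowest adjusted p was 0.440. At an unadjusted p under 0.05, 1 coregulator and 1 responsive gene were higher and 0 genes were lower in the KI-treated group, beside 6.96% higher and 4.31% lower among all tested probes. Those gene counts rest on the brightest probe of each gene. Among the dimmer probes, 1 of the responsive gene Acaca was called lower at the same unadjusted threshold, with a log2 fold change of -0.24 ± 0.11. The brightest Acaca probe (-0.39 ± 0.24) and a further dimmer one (-0.48 ± 0.27) were also lower in mean, but were not called. A dimmer probe of the coregulator Ppargc1a was called higher (1.01 ± 0.44). The median log2 fold changes of the lists were -0.05, 0.06, -0.09 and 0.02, against 0.00 over all tested probes.

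The coregulator was Hdac3, the histone deacetylase of the NCOR1 complex. Its KI-treated rats lay close together, from -1.47 to -1.23, while the controls ran from -3.84 (control 4) and -3.45 (control 6) up to -1.29 (control 2), and 6 of 6 KI-treated rats were above the control median. The log2 fold change was 0.85 ± 0.38 (limma p = 0.041, adjusted p = 0.442, exact permutation p = 0.040), and 0.29 without control 4 and control 6 (limma p = 0.056). Within the 3 sessions it was 2.21 in that of control 4 and control 6, then 0.01 and 0.45. Ppargc1a, a coactivator of mitochondrial and brown fat genes, was 0.88 ± 0.41 higher in mean (limma adjusted p = 0.443; 0.36 without those arrays), and a dimmer probe gave 1.01 ± 0.44. Tbl1x, a further subunit of the NCOR1 complex, was -0.31 ± 0.15 (limma adjusted p = 0.448, and -0.14 without them), with 0 of 6 KI-treated rats above the control median. In the same order of sessions the differences were 2.54, -0.34 and 0.31 for Ppargc1a (brightest probe) and -0.71, 0.09 and -0.25 for Tbl1x.

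The responsive gene was Dio1, the type 1 deiodinase, which converts thyroxine to T3 and is known as one of the most T3-sensitive genes of the thyroid and liver. Its levels were 1.09 to 1.70 in the KI-treated rats and -0.30 to 1.33 in the controls, where control 4 (-0.30), control 1 (0.41) and control 6 (0.58) were lowest. Each KI-treated rat lay above the control median, and the groups overlapped between 1.09 and 1.33. Dio1 had a log2 fold change of 0.55 ± 0.23 (limma p = 0.036, adjusted p = 0.440, exact permutation p = 0.045), and 0.30 without control 4 and control 6 (limma p = 0.103). Within the 3 sessions it was 1.03, 0.40 and 0.59.

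Atp2a1, the calcium pump of fast muscle, was -1.34 ± 0.73 (limma adjusted p = 0.468; -1.47 without control 4 and control 6), and it belongs to the muscle markers too. The summed level of the 10 muscle markers ran from 0.04 to 4.51 in the KI-treated rats and from 2.54 to 5.70 in the controls, with a mean difference of -1.16. The part of muscle in the Atp2a1 value was not tested. Elovl6, a fatty acid elongase, was -0.67 ± 0.37 (limma adjusted p = 0.470; -0.39 without control 4 and control 6), whereas its dimmer probe went the other way in mean, at 0.24 ± 0.35 (adjusted p = 0.771).

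Among the other receptors Nr1d1, or REV-ERBalpha, which lies on the strand opposite Thra and overlaps it, was 1.07 ± 0.55 higher in mean (limma adjusted p = 0.456). Its probe was well above background on only 8 of 13 arrays, its lowest values were those of control 4 (-7.90) and control 6 (-7.41), and the difference was 0.52 without them. Within the 3 sessions the Nr1d1 difference was 2.92 in that of control 4 and control 6, then -0.18 and -0.16. Its relative Nr1d2 was at 0.25 ± 0.23 (limma adjusted p = 0.641) and at 0.89 ± 0.48 (adjusted p = 0.468) with a dimmer probe. Vdr, the vitamin D receptor, was at 0.24 ± 0.22 and Pparg, the regulator of fat cell genes, at -0.16 ± 0.14 (limma adjusted p = 0.634 and 0.606). Of the supply genes, the amino acid transporter Slc7a8 was at 0.11 ± 0.20, the T3 transporter Slc16a10 at 0.09 ± 0.24 (-0.23 ± 0.81 with a dimmer probe) and Crym, a cytosolic T3-binding protein, at -0.06 ± 0.27 (limma adjusted p from 0.826 to 0.936). These became, without control 4 and control 6, 0.26 for Nr1d2, 0.22 for Vdr, -0.13 for Pparg, 0.20 for Slc7a8, 0.06 for Slc16a10 (brightest probe) and 0.09 for Crym.

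**Figure D5:**
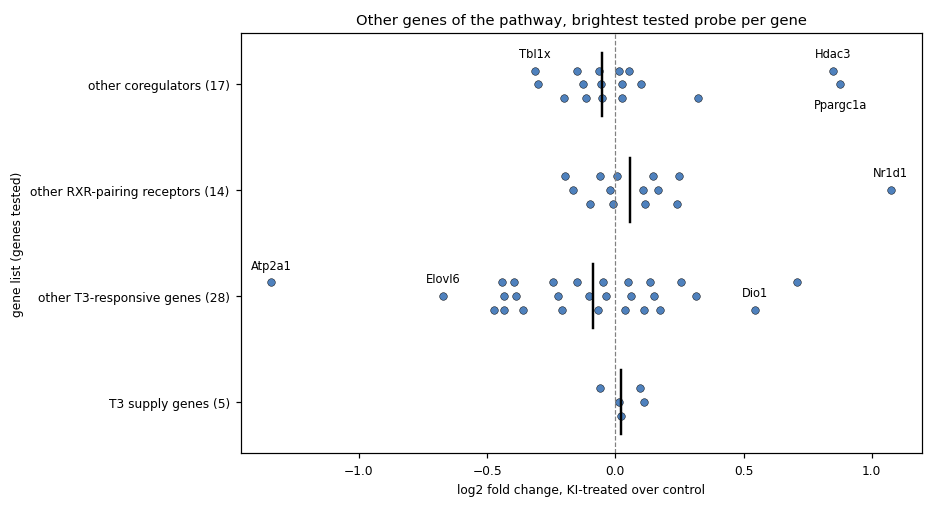
Log2 fold change of the KI-treated over the control group for each tested gene of the 4 other pathway lists (1 point per gene, brightest probe; vertical offsets only keep points apart), with the median of each list as a black bar. The medians lie between -0.09 and 0.06, and Hdac3, Ppargc1a, Nr1d1 and Atp2a1 lie farthest out.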

How the data were processed

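The scanner files the authors deposited hold, for every array, the intensity of 62976 features after background subtraction by Agilent Feature Extraction 10.7.3.1. They also deposited log2 values of the same arrays, whose normalization is not given in the sources used here and which were used as an alternative only. Coordinates are those of the rn4 build in the files. The log2 of each array's signal minus its 75th percentile over 58717 gene spots was taken, without control spots or spots marked as outliers, and spots of a probe were averaged. The arrays had 34840 to 41050 gene spots well above background and 0 saturated ones. Probes well above background (more than 50% of their spots) on at least 6 arrays were tested with limma 3.58.1 in R 4.3.3 (lmFit and eBayes, Benjamini-Hochberg, threshold 0.05). Of these, 63 lacked a value on some array. Replicates were taken as separate rats. Single probes also had an exact two-sided permutation test, and correlations 100000 permutations within groups (Python 3.11.15, numpy 2.4.6). The number of arrays limits the precision. The fit was tested on simulated data with 200 changed probes among 25640.

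The genes, lists and markers were chosen with earlier results of these data known. The genes named are all members, the 3 genes of each list with the smallest p, Nr1d1, the 3 genes most like each member and the brightest thyroid markers. Nr1d2 and Acaca were named after their values were seen. Lymphocyte markers (3 of 10 on every array) and blood markers (6 of 7) were also read. Alternatives were other normalizations and background corrections, filters, the t-test named in the study's results, array weights, blocks for slide, scan session or replicate number, and leaving out arrays. The scaling over distinct probes, the probe pairs within a gene and the fits without control 4 and control 6 were chosen after seeing the data. Some genes that this naming picks are not reported here. The cortex was not analysed here.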

Additional observations from a re-analysis of the deposited data

Results flagged for a closer look

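In 5 of 62 groups of rats 1 value stood apart from the rest by Dixon's test, which chance alone does in about 1 in 20 groups. The Rxrb level of KI 4 was -1.72 at the probe at 2141, where the other KI-treated rats lay between -1.29 and -1.08. At the overlapping Rxrb probe at 2162 the same rat was at -1.43, with the others between -0.98 and -0.73. These are 1 observation, since the probes share 42 bases. The Hr level of control 2 at the probe at 5527 was -1.88, with the other controls between -1.32 and -0.93. Among the other pathway genes, Atp2a1 was at 3.65 in control 5 (other controls 0.31 to 1.54) and Slc16a10 at -3.68 in KI 1 (other KI-treated rats -5.45 to -4.93).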

How the results depend on the processing

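The number of probes past the adjusted threshold was 0 in the fit reported, 7 with array weights (0 of them members) and 0 to 1 when single arrays were left out (1 without control 2). At an unadjusted p under 0.05 the count of 2898 became 4443 with scan session as a block and lay between 2065 (without KI 1) and 4361 (without control 1) on leaving out 1 array. The share of these calls that were higher in the KI-treated group was 61.8%, and 44.9% (1469 higher, 1801 lower) with the percentile over distinct probes, 34.8% with normexp and the 75th percentile, 49.7% with array weights and 40.2% without control 4 and control 6. The unadjusted count of members (1 of 18) was 0 with slide as a block, 2 with session as a block, 0 without control 4 and control 6, and 0 to 2 on leaving out 1 array (0 without KI 2, KI 3 or control 6, 2 without control 5). That of the pathway lists (2) was 5 with quantile normalization, 4 with normexp and quantile, 0 with the t-test, 4 with trend and robust variances, 7 with array weights, 1 without control 4 and control 6, 4 over every tested probe, and 0 (without KI 6) to 10 (without control 1) on leaving out 1 array. The calls over every tested probe added a dimmer Ppargc1a probe, which was higher, and a dimmer Acaca probe, which was lower. Of the correlated pairs, 0 passed without control 4 and control 6 and 1 to 4 without single arrays (1 without control 4). In 28 alternatives each (27 for Nr1d1, which the filter on all 13 arrays removes), 6 of 18 member probes and the brightest probes of 10 of 13 named pathway genes kept their direction, among them Hr at 618 (-0.84 to -0.31, adjusted p 0.250 to 0.609). The cause of the reversals below was not tested. Without control 4 and control 6 the sign turned for Thra at 1466 (-0.0697), Thrb at 4551 (0.0131), Rxrb (-0.0201 and -0.0135), Ncor1 at 947 (-0.218), 3006 (-0.0119) and 4349 (-0.0401), and Crym (0.0876). Rxra turned with slide as a fixed (0.0498) or random block (0.00978), session (0.0140) and the replicate block (0.00525). Ncor1 at 947 turned with quantile normalization (-0.0221), the percentile over distinct probes (-0.0274), normexp and quantile (-0.0216) and array weights (-0.134). Ncor1 at 4349 turned with normexp and the 75th percentile (-0.113) or quantile (-0.00905), Ncor1 at 8125 (-0.00422) and Hr at 5527 (-0.0465) with the percentile over distinct probes, Slc16a10 with normexp and the 75th percentile (-0.0495) and Crym with array weights (0.107). Leaving out single arrays gave ranges across 0 for Thrb at 5302 (-0.112 to 0.00576), Rxra (-0.134 to 0.0800), Ncor1 at 947 (-0.0666 to 0.159), Hr at 5490 (-0.0987 to 0.191), Hr at 5527 (-0.0721 to 0.121), Slc7a8 (-0.0239 to 0.191), Slc16a10 (-0.153 to 0.202) and Crym (-0.258 to 0.0662). With the replicate block 0 probes passed adjustment and 2112 were called unadjusted. Same-numbered rats did not deviate together over the tested probes (correlations -0.11 to 0.07). No pairing by number was seen, but such a check cannot exclude a weak one.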
